A study of Mus musculus with 82 samples.

Results

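AMP-activated protein kinase (AMPK) is an energy sensor that cells switch on when ATP runs low, and 991 is a small molecule that activates it by binding directly to the enzyme. The results below describe which part of the transcriptional response to 991 in mouse embryonic fibroblasts (MEFs) differed with the presence of AMPK: for each gene, the change on 991 in cells with AMPK minus the change in cells without it, called the interaction here. The members are the 15 MEF arrays whose titles give 991 or no treatment, out of 82 arrays in the series, which also holds AICAR-treated MEFs and primary hepatocytes. The first group is WT MEFs with 991 at 10 µM for 4 h (3 arrays), followed by WT MEFs with vehicle, DMSO, for 4 h (4 arrays). The next is AMPK alpha1-/- alpha2-/- MEFs, which lack both catalytic subunits and are called dKO, with 991 at 10 µM for 4 h (4 arrays), followed by dKO MEFs with vehicle for 4 h (4 arrays). All cells have the C57BL/6 background and grew in medium with 10% fetal calf serum. The submitters describe every MEF array as a technical replicate and left out 1 WT 991 array as an outlier, so p-values below measure technical spread only. WT and dKO cells are also different cultures, so loss of AMPK and any other difference between those cultures cannot be told apart.

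AMPK phosphorylates proteins of energy metabolism within minutes, and it also reaches the nucleus through transcription factors. One route runs over the lysosome: folliculin (FLCN) and its partners FNIP1 and FNIP2 act on the Rag GTPases, which control whether the factors TFEB and TFE3 stay in the cytoplasm or enter the nucleus and switch on lysosomal and autophagy genes through the E-box-type CLEAR element. A second set of factors, the SREBPs, drives cholesterol and fatty acid synthesis, and AMPK is known as an inhibitor of lipid synthesis at the protein level. The integrated stress response, with ATF4 and CHOP, is another program relevant to the genes below.

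The interaction was called for 829 of 18193 genes (4.56%) at an adjusted p under 0.05 in limma, a linear model fitted to all genes at once. It was positive, meaning a higher 991 effect in WT than in dKO cells, for 705 genes (3.88%) and negative for 124 genes (0.682%). Differences were small on the log2 scale, with a median interaction of 0.31 among the positive genes and -0.41 among the negative ones, against 0 over all genes. At least a 1.5-fold difference between the genotypes' effects was measured for 39 positive and 8 negative genes. In WT cells alone 991 changed 3331 genes (18.3%; 2413 rose, 13.3%, and 918 fell, 5.05%), while in dKO cells it changed 463 (2.54%; 234 rose, 1.29%, and 229 fell, 1.26%), and 0 of those in dKO reached 1.5-fold.

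The arrays behind these values were alike in most measures. These measures were taken over the 34945 probe sets with 1 gene symbol. Array medians lay between 6.59 and 6.66, and no 2 arrays were identical. Each array correlated with the mean of the other arrays of its group at r between 0.998 and 0.9992 across probe sets. The arrays differed in width, the interquartile range of their log2 values, which was 4.04, 3.99 and 3.88 in WT 991, 3.73, 3.89, 3.75 and 3.79 in WT vehicle, 3.73, 3.75, 3.94 and 3.89 in dKO 991, and 3.84, 3.82, 3.83 and 3.76 in dKO vehicle. WT 991 was the widest group on average (3.97, against 3.79 in WT vehicle, 3.83 in dKO 991 and 3.81 in dKO vehicle). The interaction moved with the level of a gene, with a median of -0.09 over genes below the median level of 7.08 and 0.06 over those above it. Below that level lay 72 of the 705 positive calls (10.2%) and 64 of the 124 negative ones (51.6%). Of the 9097 genes at or above 7.08, 633 were called positive and 60 negative. The 4.56% called over all genes, which is set beside the gene lists below, is not matched for level. With array width as a covariate 354 genes were called, 269 of them positive, and 282 of these were among the 829; the lysosomal count was then 11, the sterol count 13 and the folliculin list count 3. With quantile normalization, which gives all arrays the same width, 622 genes were called, 71.2% of them positive, against 85% with the values as deposited, and 514 were among the 829. Under it 54.6% of the genes called in WT cells were higher, against 72.4% as deposited, and 39.9% of those called in dKO cells, against 50.5%.

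**Figure D1:**
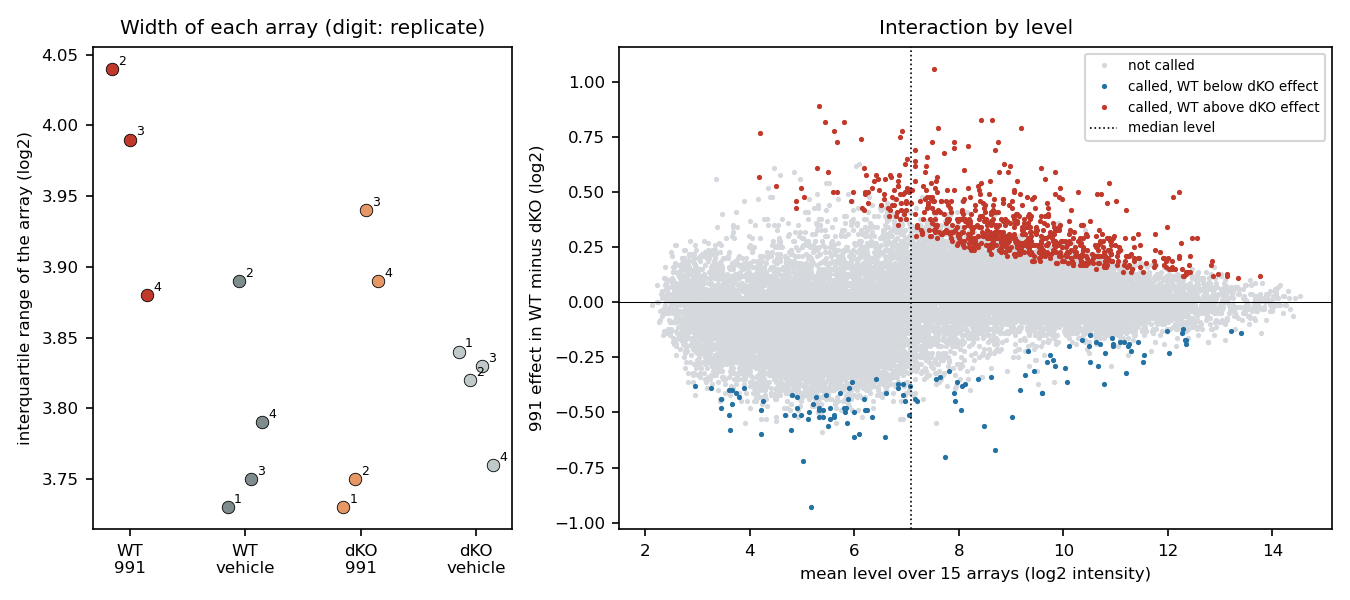
Left, interquartile range of the log2 values of each of the 15 arrays (y axis) by group, with the replicate number beside each point; right, interaction of each gene (y axis, log2) against its mean level over the 15 arrays (x axis, log2 intensity), with called genes in red and blue and the median level of 7.08 as a dotted line. The WT 991 replicates 2 and 3 are the widest arrays, at 4.04 and 3.99, and the positive calls lie mostly at or above the median level (633 of 705).

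The largest value among the genes chosen by size belonged to Crebrf, a regulator of the stress factor CREB3, followed by Bhlhe40, a transcriptional repressor of the circadian clock, the fatty acid transporter gene Slc27a1, Flcn, the stress factor gene Ddit3 (which encodes CHOP), Txnip, the lysosomal sialidase gene Neu1 and Fnip2. Of the sterol genes measured, 15 of 25 (60%) had a called positive interaction, as did 18 of 53 lysosomal genes (34%). In either list 0 had a negative one. Over all genes 3.88% were called positive and 0.682% negative. Of all calls 85% were positive, and at or above the median level 633 were positive and 60 negative. At or above the median level, the largest called negative interactions were those of the phosphodiesterase gene Pde4b and the transcription factor gene Klf2, while Cxcl5 (-0.93) and Shisa9 (-0.72) were larger in size at lower mean levels.

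**Figure D2:**
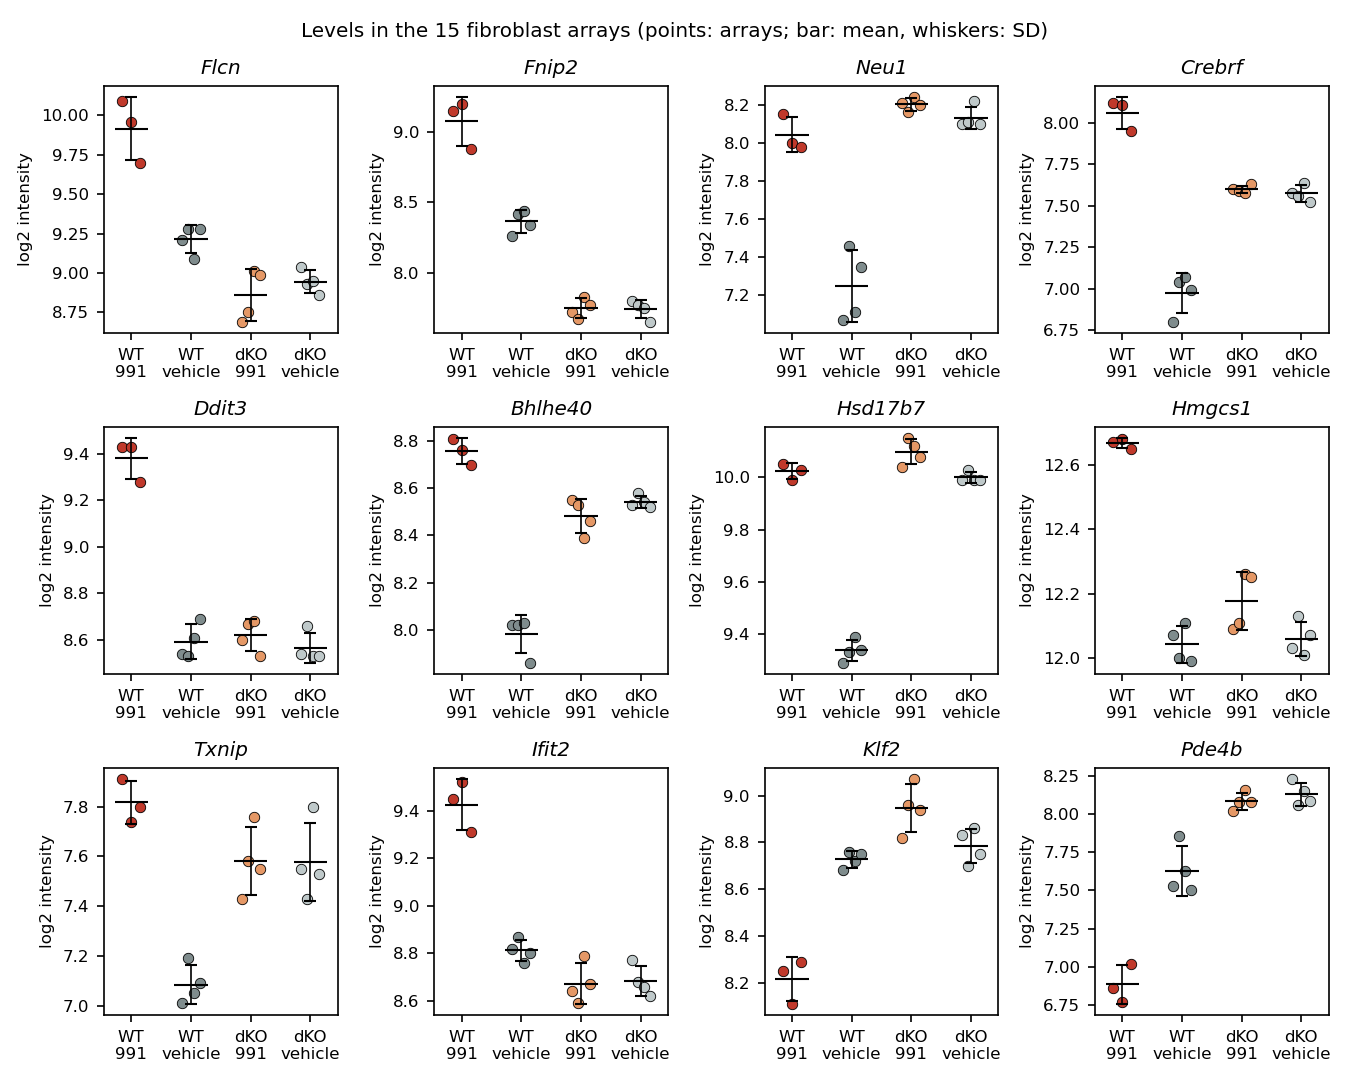
Log2 intensity (y axis) of 12 genes in each of the 15 arrays, with the group mean as a bar and the SD as whiskers; groups run from WT 991 to dKO vehicle on the x axis, and each panel has its own y range. In the first 10 panels every WT 991 array lies above every WT vehicle array, and for Klf2 and Pde4b every WT 991 array lies below; for Hsd17b7 alone, the dKO 991 arrays also stand clear of dKO vehicle.

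Because TFEB, TFE3 and other factors with a basic helix-loop-helix domain bind E-boxes, the promoters of genes with a called interaction were searched for the letters CACGTG on both strands, and for the longer TCACGTGA, which contains CACGTG. The windows run from 250 bases before to 50 bases after each RefSeq start site (GRCm38.p6), and 14452 of the 18193 genes have one. CACGTG was present in 122 of 556 promoters of genes with a positive interaction (21.9%), in 4 of 91 with a negative one (4.4%), and in 1479 of all 14452 (10.2%). The share for negative interactions rests on 4 promoters. Of the negative calls 51.6% lay below the median level, and their share was not taken at matched levels. Genes with a positive interaction are mostly well expressed, and with the search limited to levels no lower than the median the shares were 110 of 505 (21.8%) for a positive interaction and 927 of 7485 (12.4%) for all. Among genes that 991 raised in WT cells without a called interaction, 206 of 1518 (13.6%) had it. TCACGTGA was found in 29 of 556 promoters (5.22%), against 235 of 14452 (1.63%). At or above the median level its shares were 5.35% for a positive interaction and 2.57% for all genes, and genes raised in WT cells without a called interaction had 3.62%. TGATGNAAT, a form of the element that ATF4 binds with C/EBP factors, was found in 2 of 556 (0.36%) and 105 of 14452 (0.727%). These counts describe letters in windows and do not show that any factor bound there.

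The windows below are shown because they hold the longer forms in genes that the results turn on; the match is in capitals with 26 bases on either side, read 5′ to 3′ on the strand of the gene, and each match lies before the start site. The first is from the gene with the largest interaction, the next 3 are from genes of lysosomal or vesicle proteins, and the last 2 are from members of the folliculin and Rag branch, which have the 6-base form only.
Crebrf, chr17:26715498-26715557, plus strand: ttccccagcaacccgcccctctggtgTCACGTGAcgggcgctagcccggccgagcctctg
Pip4p1, chr14:50930871-50930930, minus strand: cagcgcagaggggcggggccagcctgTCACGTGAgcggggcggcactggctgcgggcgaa
Dpp7, chr2:25356373-25356432, minus strand: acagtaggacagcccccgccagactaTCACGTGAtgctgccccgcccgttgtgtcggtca
Ctsd, chr7:142387893-142387952, minus strand: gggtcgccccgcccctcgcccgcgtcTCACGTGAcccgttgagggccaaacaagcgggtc
Fnip1, chr11:54438078-54438135, plus strand: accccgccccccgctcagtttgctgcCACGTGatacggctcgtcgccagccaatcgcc
Rragc, chr4:123917295-123917352, plus strand: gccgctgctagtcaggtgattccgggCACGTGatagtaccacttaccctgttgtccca

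In the lysosomal list, CACGTG was present in 8 of the 14 promoters of members with a called positive interaction and in 10 of the 29 promoters of the other members. TCACGTGA was present in 5 of those 14 and 4 of those 29. In the sterol list, CACGTG was present in 5 of 12 promoters of members with a positive interaction and 1 of 8 of the others, and in the folliculin and Rag list in 2 of 4 and 2 of 17.

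The deleted genes themselves gave no clear reading. Prkaa1, which encodes AMPKα1, measured 8.53, 8.35 and 8.02 in WT 991, against 8.45, 8.45, 8.17 and 8.34 in WT vehicle, and 8.21, 7.93, 8.55 and 8.43 in dKO 991, against 8.35, 8.27, 8.17 and 8.25 in dKO vehicle. The 4 groups overlap, and the vehicle difference between dKO and WT was -0.09 (adjusted p = 0.523). Prkaa2, which encodes AMPKα2, measured 6.18, 6.03 and 6.01 in WT 991, against 6.33, 6.30, 6.15 and 6.06 in WT vehicle, and 5.94, 6, 5.99 and 6.12 in dKO 991, against 6, 5.89, 5.89 and 5.76 in dKO vehicle. Under vehicle it was lower in dKO cells by a log2 difference of -0.32 ± 0.08 (SE, adjusted p = 0.00158). Neither the position of the deletions nor that of the probes is given in the sources used here, so these levels do not check the genotype labels. Neither gene had a called interaction (-0.07 ± 0.15 (SE, adjusted p = 0.807) for Prkaa1 and -0.26 ± 0.12 (SE, adjusted p = 0.203) for Prkaa2). Of 14 measured genes for AMPK subunits and upstream kinases 0 were called, with a median interaction of 0.

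The genes of the folliculin complex, part of the lysosomal route described above, are given next. RNA levels at 4 h do not test the order of that route. Flcn measured 10.09, 9.96 and 9.70 in WT 991, against 9.21, 9.28, 9.09 and 9.28 in WT vehicle, and 8.69, 8.75, 9.01 and 8.99 in dKO 991, against 9.04, 8.93, 8.95 and 8.86 in dKO vehicle. All WT 991 arrays were above all WT vehicle arrays, while the dKO groups overlapped. The 991 effect was 0.71 in WT cells (1.63-fold) and -0.08 in dKO cells (95% interval -0.23 to 0.07), and the interaction was 0.79 ± 0.11 (SE, adjusted p = 0.000138). A further Flcn probe set gave 0.67 ± 0.08, and another, with a mean level of 3.94, gave 0.07 ± 0.12.

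Fnip2, which encodes one of folliculin's partners, measured 9.15, 9.20 and 8.88 in WT 991, against 8.26, 8.42, 8.44 and 8.34 in WT vehicle, and 7.72, 7.67, 7.83 and 7.77 in dKO 991, against 7.80, 7.77, 7.75 and 7.65 in dKO vehicle. Its 991 effect was 0.71 in WT and 0 in dKO cells (95% interval -0.13 to 0.13), with an interaction of 0.71 ± 0.09 (SE, adjusted p = 6.64e-05). The WT vehicle arrays were already above the dKO arrays, by a dKO minus WT difference of -0.62 ± 0.06 (SE, adjusted p = 8.78e-09).

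Fnip1, the gene of the other partner, measured 9.84, 9.65 and 9.21 in WT 991, against 8.65, 8.82, 8.59 and 8.82 in WT vehicle, and 8.15, 7.82, 8.67 and 8.43 in dKO 991, against 8.40, 8.13, 8.23 and 8.26 in dKO vehicle. The WT 991 arrays again stood above WT vehicle, and the dKO 991 arrays spread on both sides of dKO vehicle. Its interaction was 0.83 ± 0.19 (SE, adjusted p = 0.012). It missed the threshold without WT 991 replicate 2 (0.70; adjusted p = 0.0543) and when array width entered the fit (0.39; adjusted p = 0.145). The limma fit without an intensity trend lost it too (0.83; adjusted p = 0.0672). Another Fnip1 probe set gave 0.70 ± 0.10 (SE, adjusted p = 0.000632 in a limma fit over probe sets).

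Rragc, which encodes the GTPase RagC that folliculin acts on, measured 11.82, 11.82 and 11.78 in WT 991, against 11.43, 11.51, 11.48 and 11.48 in WT vehicle, and 11.06, 11.08, 11.11 and 11.12 in dKO 991, against 11.11, 10.99, 11.03 and 11.08 in dKO vehicle. Its interaction was 0.29 ± 0.04 (SE, adjusted p = 0.000293), with a 991 effect of 0.33 in WT and 0.04 in dKO cells. Of the 23 measured members of the folliculin, Rag and MiT/TFE list, 4 (17.4%) had a called positive interaction and 0 a negative one. The list median was 0.12, and 4.56% of all genes were called. The factors' own genes were not among them: the interaction was -0.11 for Tfeb (adjusted p = 0.414), 0.12 for Tfe3 (adjusted p = 0.32) and 0 for Mitf (adjusted p = 0.99). Rragd, a known TFEB target, gave 0.18 (adjusted p = 0.433).

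Lysosomal genes formed the longest called list. The 18 members with a positive interaction were the hydrolase genes Neu1, Naglu, Gla, Hexa, Gaa, Gusb and Ctsd, the protective protein gene Ctsa, the membrane protein genes Pip4p1, Ctns, Npc1 and Ostm1, and 6 genes for subunits of the V-ATPase, the proton pump that acidifies the lysosome (Atp6v0b, Atp6v0d1, Atp6v1b2, Atp6v1e1, Atp6v1g1 and Atp6v1h). The sign was positive in 47 of the 53 measured members and the list median was 0.15. The count of called members ranged between 13 and 25 when 1 array was left out and between 11 and 21 under the other settings.

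Neu1 measured 8.15, 8 and 7.98 in WT 991, against 7.07, 7.46, 7.11 and 7.35 in WT vehicle, and 8.21, 8.16, 8.24 and 8.20 in dKO 991, against 8.10, 8.11, 8.22 and 8.10 in dKO vehicle. The WT vehicle arrays were the low group: 991 brought WT cells close to the level that dKO cells had with and without 991. Its 991 effect was 0.80 in WT and 0.07 in dKO cells, and the interaction was 0.73 ± 0.10 (SE, adjusted p = 0.00019). The mean over all 3 probe sets gave 0.26 (adjusted p = 0.12), since the other probe sets, with mean levels of 5.14 and 4.88, gave -0.16 ± 0.17 and 0.20 ± 0.14.

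Pip4p1 encodes the lysosomal membrane protein TMEM55B, known as a target of TFEB and TFE3. It measured 10.26, 10.22 and 10.17 in WT 991, against 9.54, 9.55, 9.57 and 9.46 in WT vehicle, and 9.40, 9.32, 9.50 and 9.44 in dKO 991, against 9.34, 9.30, 9.38 and 9.32 in dKO vehicle. WT 991 stood apart from the 3 other groups, which lay between 9.30 and 9.57. The interaction was 0.61 ± 0.06 (SE, adjusted p = 2.87e-06). Dpp7, which encodes a dipeptidyl peptidase of vesicles and is not in the list, measured 9.10, 9.07 and 8.94 in WT 991, against 8.26, 8.56, 8.36 and 8.43 in WT vehicle, and 8.65, 8.54, 8.71 and 8.84 in dKO 991, against 8.83, 8.75, 8.84 and 8.57 in dKO vehicle. The dKO groups, at 8.54 to 8.84, overlapped each other and touched the top of WT vehicle, all below WT 991, and the interaction was 0.69 ± 0.10 (SE, adjusted p = 0.000279).

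Among the remaining lysosomal members the interactions ran from 0.51 ± 0.10 for Naglu (SE, adjusted p = 0.00369) to 0.17 ± 0.04 for Atp6v1g1 (SE, adjusted p = 0.00966). Atp6v1b2 and Ostm1 also rose in dKO cells, by 0.17 (adjusted p = 0.0153) and 0.15 (adjusted p = 0.0254), with WT effects of 0.45 and 0.38. Ctns, which encodes the cystine exporter, is uncertain: its adjusted p was 0.0496 and it missed the threshold in 12 of the 15 fits without 1 array. Gusb, Npc1 and Atp6v0d1 missed it in 11, 10 and 9 of those fits. Not every lysosomal gene was called: Lamp1, which encodes a major membrane protein, had an interaction of 0.05 (adjusted p = 0.427), and the calcium channel gene Mcoln1 had 0.18 (adjusted p = 0.112).

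In the autophagy list 4 of 42 measured members (9.52%) were called, all positive: the cargo receptor genes Sqstm1, Nbr1 and Calcoco1 and the gene of the ATG8-family protein Gabarapl1. Over all genes 4.56% were called, and 85% of all calls were positive. The list has a median level of 8.78, and of the 9097 genes at or above 7.08, 633 were called positive and 60 negative. Sqstm1 had an interaction of 0.24 ± 0.04 (SE, adjusted p = 0.00207), with effects of 0.32 in WT and 0.08 in dKO cells. Calcoco1, Gabarapl1 and Nbr1 missed the threshold in 10, 11 and 3 of the 15 fits without 1 array. The count of called members ranged between 1 and 11 in those fits. Ulk1, the gene of the kinase that AMPK phosphorylates to start autophagy, had an interaction of -0.02 (adjusted p = 0.918).

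**Figure D3:**
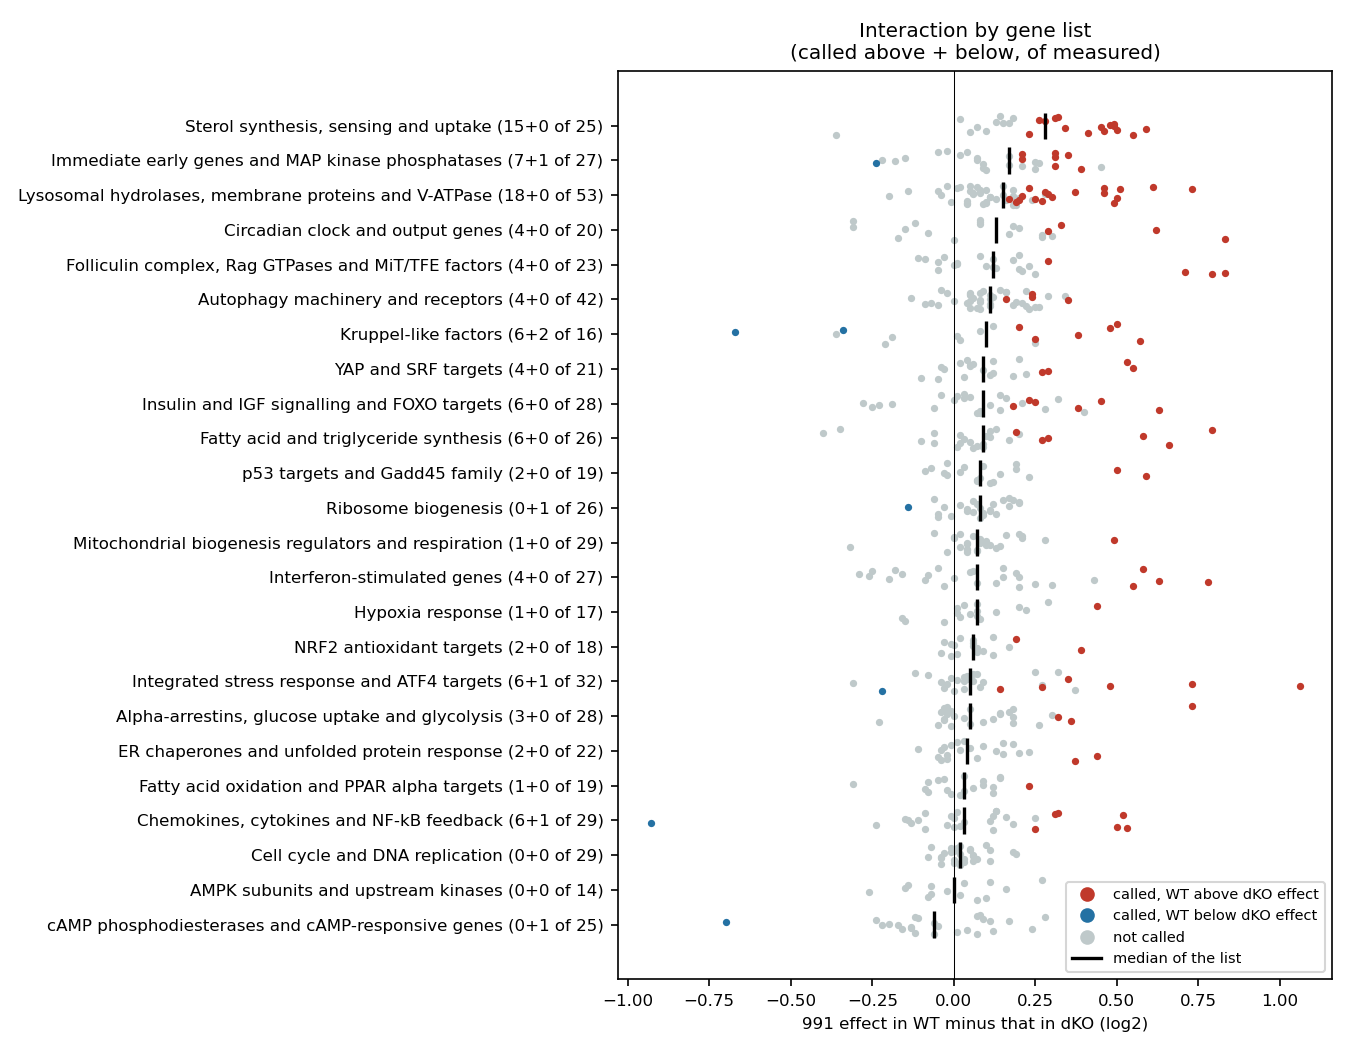
Interaction (x axis, log2, 991 effect in WT minus that in dKO) of every measured member of the 24 gene lists (rows, ordered by the list median, a black bar); red points were called positive, blue points called negative and grey points not called. The sterol list has the highest median, 0.28, with 15 red points among 25, while the cell cycle list has 0 called among 29.

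Sterol synthesis was the list with the highest called share, 15 of 25 measured members (60%), and the highest median, 0.28. The called members covered the route from its entry to its end: Hmgcs1, Pmvk, Mvd, Idi1, Fdft1, Sqle, Lss, Cyp51, Msmo1, Sc5d, Hsd17b7 and Dhcr7 encode enzymes, Insig1 encodes the sterol-regulated retention factor of the SREBPs, Stard4 a cholesterol carrier and Abca1 a cholesterol exporter. The count lay between 15 and 16 when 1 array was left out and between 12 and 15 under the other settings. Their 991 effects ran from 0.32 (Cyp51) to 0.69 (Hsd17b7) in WT cells and from -0.02 (Insig1) to 0.15 (Sc5d) in dKO cells, where Sc5d was called (adjusted p = 0.0245).

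Hmgcs1, which encodes the HMG-CoA synthase at the entry of the route, measured 12.67, 12.68 and 12.65 in WT 991, against 12.07, 12, 12.11 and 11.99 in WT vehicle, and 12.09, 12.11, 12.26 and 12.25 in dKO 991, against 12.03, 12.13, 12.01 and 12.07 in dKO vehicle. All WT 991 arrays were above 12.6 while all other arrays were below 12.3. Its interaction was 0.50 ± 0.05 (SE, adjusted p = 6.65e-06); the other 4 probe sets gave between 0.14 and 0.65. A window of its promoter holds TCACCCCAC, a form of the sterol regulatory element, and is shown as the only match in the sterol list: it is chr13:119690188-119690248 on the plus strand of GRCm38.p6.
Hmgcs1: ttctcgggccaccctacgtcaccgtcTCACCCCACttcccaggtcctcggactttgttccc
That string was found in 3 of 556 promoters with a positive interaction (0.54%) and in 98 of 14452 promoters in all (0.678%).

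Hsd17b7, which encodes a sterol ketone reductase late in the route, measured 10.05, 9.99 and 10.03 in WT 991, against 9.29, 9.33, 9.39 and 9.34 in WT vehicle, and 10.04, 10.15, 10.12 and 10.08 in dKO 991, against 9.99, 10.03, 9.99 and 9.99 in dKO vehicle. As with Neu1, WT vehicle was the low group, and the dKO minus WT difference under vehicle was 0.66 ± 0.03 (SE, adjusted p = 3.44e-14). The dKO 991 arrays were slightly above dKO vehicle without passing the test (0.10; adjusted p = 0.15), and the interaction was 0.59 ± 0.05 (SE, adjusted p = 4.46e-07).

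Lss, which encodes lanosterol synthase, measured 10.22, 10.32 and 10.22 in WT 991, against 9.55, 9.78, 9.57 and 9.65 in WT vehicle, and 9.87, 9.92, 9.81 and 9.86 in dKO 991, against 9.76, 9.77, 9.70 and 9.73 in dKO vehicle, an interaction of 0.49 ± 0.06 (SE, adjusted p = 7.35e-05). Abca1 works in the other direction, sending cholesterol out of the cell; it measured 7.65, 7.67 and 7.47 in WT 991, against 6.86, 7.13, 6.94 and 6.95 in WT vehicle, and 7.06, 7.19, 7.18 and 7.19 in dKO 991, against 6.97, 7.16, 7.10 and 7.06 in dKO vehicle, an interaction of 0.55 ± 0.10 (SE, adjusted p = 0.00248), but the mean over its 3 probe sets gave 0.17 (adjusted p = 0.29). Insig1 measured 10.05, 10.05 and 9.89 in WT 991, against 9.59, 9.39, 9.68 and 9.59 in WT vehicle, and 9.56, 9.48, 9.74 and 9.70 in dKO 991, against 9.67, 9.70, 9.61 and 9.58 in dKO vehicle, an interaction of 0.45 ± 0.09 (SE, adjusted p = 0.00295). The gene of the sterol factor itself, Srebf2, had an interaction of 0.18 (adjusted p = 0.118).

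Fatty acid and triglyceride synthesis had 6 of 26 measured members called (23.1%, against 4.56% of all genes). All 6 were positive, as were 85% of all calls. Slc27a1, which encodes a fatty acid transport protein, measured 7.16, 7.13 and 7.02 in WT 991, against 6.49, 6.49, 6.59 and 6.52 in WT vehicle, and 8.05, 8.14, 8.32 and 8.39 in dKO 991, against 8.40, 8.56, 8.42 and 8.37 in dKO vehicle. The level was much higher in dKO cells, by 1.92 ± 0.07 under vehicle (SE, adjusted p = 2.2e-17), and the 991 effects were 0.58 in WT and -0.21 in dKO cells (adjusted p = 0.104), an interaction of 0.79 ± 0.10 (SE, adjusted p = 4.91e-05). A second probe set of the gene gave 0.17 ± 0.08. Acss2, which encodes the cytosolic acetyl-CoA synthetase, measured 7.69, 7.71 and 7.60 in WT 991, against 6.95, 6.86, 6.99 and 6.86 in WT vehicle, and 7.44, 7.45, 7.66 and 7.68 in dKO 991, against 7.38, 7.52, 7.51 and 7.46 in dKO vehicle. Its interaction was 0.66 ± 0.10 (SE, adjusted p = 0.000252); a second probe set gave 0.61 ± 0.13 and another, with a mean level of 5.21, gave -0.17 ± 0.20, and their mean was 0.37 (adjusted p = 0.0913).

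Lpin1, the gene of the phosphatidate phosphatase lipin, had an interaction of 0.58 ± 0.11 (SE, adjusted p = 0.00202). Fasn, the fatty acid synthase gene, measured 11.12, 11.10 and 11.11 in WT 991, against 10.89, 10.98, 10.92 and 10.96 in WT vehicle, and 10.66, 10.63, 10.69 and 10.77 in dKO 991, against 10.85, 10.85, 10.80 and 10.73 in dKO vehicle, with 991 effects of 0.17 in WT and -0.12 in dKO cells (adjusted p = 0.0622) and an interaction of 0.29 ± 0.05 (SE, adjusted p = 0.00137). Elovl6 and Scd1, which encode an elongase and a desaturase, gave 0.27 (adjusted p = 0.00115) and 0.19 (adjusted p = 0.034), and the Scd1 call was lost in 8 of the 15 fits without 1 array. Fatty acid oxidation stayed near the background, with 1 of 19 measured members called (5.26%). That member, Cpt2, missed the threshold in 10 of the 15 fits without 1 array and with quantile normalization (0.15; adjusted p = 0.114). Cpt1a, which encodes the entry enzyme into mitochondria, had 0.12 (adjusted p = 0.363). Of 29 mitochondrial genes 1 was called, the coactivator gene Ppargc1b with an interaction of 0.49 (adjusted p = 0.00676), while Ppargc1a had 0.28 (adjusted p = 0.239).

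Of the 32 measured members of the list for the integrated stress response and ATF4 targets, 6 had a called positive interaction and 1 a negative one. That is 21.9% called, against 4.56% of all genes, a share not matched for level. The count of 7 ranged between 4 and 9 when 1 array was left out and between 4 and 6 under the other settings. The list median was 0.05. The positive members were Crebrf, Ddit3, Crebl2, Ppp1r15a, Chac1 and Atf4. Crebrf, named above as a regulator of CREB3, and Crebl2 count in this share because the list holds them. The list was drawn up with earlier results of these data known. Crebrf measured 8.12, 8.11 and 7.95 in WT 991, against 6.80, 7.04, 7.07 and 6.99 in WT vehicle, and 7.60, 7.59, 7.58 and 7.63 in dKO 991, against 7.58, 7.56, 7.64 and 7.52 in dKO vehicle. Each of the 3 WT 991 arrays was above every other array, and the 8 dKO arrays lay between 7.52 and 7.64. The 991 effect was 1.09 in WT (2.13-fold) and 0.03 in dKO cells (1.02-fold; 95% interval of the log2 value -0.10 to 0.16), and the interaction was 1.06 ± 0.09 (SE, adjusted p = 4.46e-07). The other 2 probe sets gave 0.44 ± 0.10 and 0.64 ± 0.15.

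Ddit3 measured 9.43, 9.43 and 9.28 in WT 991, against 8.54, 8.53, 8.61 and 8.69 in WT vehicle, and 8.60, 8.67, 8.68 and 8.53 in dKO 991, against 8.54, 8.66, 8.53 and 8.53 in dKO vehicle. The other groups all lay at or below 8.69, and the genotypes did not differ detectably under vehicle (-0.03; adjusted p = 0.693). The interaction was 0.73 ± 0.08 (SE, adjusted p = 4.44e-06), and a second probe set gave 0.61 ± 0.09. Ppp1r15a, which encodes the regulatory subunit GADD34 that reverses eIF2α phosphorylation, had 0.35 (adjusted p = 0.00202), and Chac1, a glutathione-degrading enzyme gene, had 0.27 (adjusted p = 0.00887). Crebl2 gave 0.48 ± 0.13 (SE, adjusted p = 0.0315), a call lost in 7 of the 15 fits without 1 array. Atf4 itself gave 0.14 (adjusted p = 0.0435), a call that was lost in 11 of the 15 fits without 1 array. Asns, the asparagine synthetase gene, had 0 (adjusted p = 0.998) and Sesn2 0.03 (adjusted p = 0.857), and Aldh1l2, a mitochondrial folate enzyme gene, had -0.22 (adjusted p = 0.049), a call lost in 11 of the 15 fits without 1 array.

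In the clock list 4 of 20 members (20%) were called, against 4.56% of all genes. All 4 were positive, as were 85% of all calls. Bhlhe40 measured 8.81, 8.76 and 8.70 in WT 991, against 8.02, 8.02, 8.03 and 7.86 in WT vehicle, and 8.55, 8.53, 8.39 and 8.46 in dKO 991, against 8.53, 8.58, 8.54 and 8.52 in dKO vehicle. Both dKO groups were above WT vehicle and below WT 991, and the interaction was 0.83 ± 0.07 (SE, adjusted p = 4.46e-07). Dbp, a clock output factor, measured 7.63, 7.59 and 7.66 in WT 991, against 6.89, 7.02, 7 and 7.09 in WT vehicle, and 7.05, 7.01, 7.10 and 7.15 in dKO 991, against 7.11, 7.03, 7.08 and 7.10 in dKO vehicle, with WT 991 above the 3 other groups and an interaction of 0.62 ± 0.09 (SE, adjusted p = 0.000183). Nr1d2, which encodes the nuclear receptor REV-ERBβ, gave 0.33 ± 0.05 (SE, adjusted p = 0.000566). Csnk1e gave 0.29 (adjusted p = 0.0143), and the period genes Per1 and Per2 gave 0.08 (adjusted p = 0.551) and -0.12 (adjusted p = 0.562).

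Txnip, an alpha-arrestin that limits glucose uptake, measured 7.91, 7.74 and 7.80 in WT 991, against 7.01, 7.19, 7.05 and 7.09 in WT vehicle, and 7.43, 7.58, 7.76 and 7.55 in dKO 991, against 7.55, 7.43, 7.80 and 7.53 in dKO vehicle. The dKO arrays, between 7.43 and 7.80 over both treatments, lay above WT vehicle and reached into the range of WT 991. Its interaction was 0.73 ± 0.11 (SE, adjusted p = 0.000469), whereas a second probe set gave 0.21 ± 0.16. Its relative Arrdc4 gave 0.18 (adjusted p = 0.422), and of the 28 glucose genes measured 3 were called (10.7%, against 4.56% of all genes). Hk2, a hexokinase gene, rose by 0.18 in WT cells and fell by 0.18 in dKO cells (adjusted p = 0.0362). Eno2, which encodes an enolase and is not in the list, had an interaction of 0.69 ± 0.12 (SE, adjusted p = 0.00152). Pdp1, a phosphatase gene of the pyruvate dehydrogenase complex, gave 0.32 ± 0.08 (SE, adjusted p = 0.0316), a call lost in 7 of the 15 fits without 1 array and with quantile normalization (0.21; adjusted p = 0.146). Gdap10, also outside the lists, gave 0.68 ± 0.09 (SE, adjusted p = 0.000124).

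Among 28 genes of insulin signalling and FOXO action, 6 were called, all positive (21.4%, against 4.56% of all genes). That count ranged between 4 and 8 when 1 array was left out and between 4 and 9 under the other settings. Fbxo32, a FOXO target that encodes a ubiquitin ligase, measured 6.71, 6.63 and 6.45 in WT 991, against 6.08, 6.17, 6.16 and 6.11 in WT vehicle, and 7.34, 7.53, 7.49 and 7.46 in dKO 991, against 7.69, 7.66, 7.63 and 7.51 in dKO vehicle. Its effects were 0.46 in WT and -0.17 in dKO cells (adjusted p = 0.224), an interaction of 0.63 ± 0.10 (SE, adjusted p = 0.000584). Foxo3 gave 0.38 ± 0.06 (SE, adjusted p = 0.00115), and Irs2, an adaptor of the insulin receptor, gave 0.45 ± 0.10 (SE, adjusted p = 0.0071), which missed the threshold with array width as a covariate (0.28; adjusted p = 0.0905). The call for Irs1, the related adaptor gene, came from dKO cells, where 991 lowered it by a log2 effect of -0.24 (adjusted p = 0.0007), against 0.01 in WT cells.

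Interferon-stimulated genes had 4 of 27 called, all positive (14.8%, against 4.56% of all genes), and 2 in a fit that left out genes below the median level. Ifit2 measured 9.45, 9.52 and 9.31 in WT 991, against 8.82, 8.87, 8.76 and 8.80 in WT vehicle, and 8.64, 8.59, 8.79 and 8.67 in dKO 991, against 8.77, 8.68, 8.66 and 8.62 in dKO vehicle, and its interaction was 0.63 ± 0.08 (SE, adjusted p = 2.48e-05). Ifit1 measured 8.50, 8.30 and 8.11 in WT 991, against 7.47, 7.47, 7.48 and 7.43 in WT vehicle, and 6.15, 6.10, 6.28 and 6.11 in dKO 991, against 5.97, 6.07, 6.30 and 6.07 in dKO vehicle; the dKO arrays were far lower, by -1.36 ± 0.08 under vehicle (SE, adjusted p = 4.1e-13), and the interaction was 0.78 ± 0.12 (SE, adjusted p = 0.000405). Stat2, which encodes a factor of interferon signalling, and the chemokine gene Cxcl10 gave 0.58 ± 0.13 (SE, adjusted p = 0.00915) and 0.55 ± 0.09 (SE, adjusted p = 0.000617). The interferon factor gene Irf7 gave -0.20 (adjusted p = 0.303), and the list median was 0.07.

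Of the 16 measured Kruppel-like factor genes 8 were called (50%, against 4.56% of all genes), 6 positive and 2 negative. Klf9 measured 11.24, 11.26 and 11.23 in WT 991, against 10.65, 10.74, 10.65 and 10.62 in WT vehicle, and 9.80, 9.80, 9.74 and 9.83 in dKO 991, against 9.78, 9.63, 9.71 and 9.72 in dKO vehicle, an interaction of 0.50 ± 0.05 (SE, adjusted p = 5.58e-06). Klf11 gave 0.57 ± 0.14 (SE, adjusted p = 0.0163) and Klf5 0.48 ± 0.08 (SE, adjusted p = 0.00132). Klf11 missed the threshold with array width as a covariate (0.55; adjusted p = 0.0581), and Klf5 missed it as the mean of its probe sets (0.22; adjusted p = 0.0689). The count was between 4 and 8 under the other settings.

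Klf2 moved the opposite way. It measured 8.25, 8.11 and 8.29 in WT 991, against 8.68, 8.76, 8.72 and 8.75 in WT vehicle, and 8.82, 8.96, 9.07 and 8.94 in dKO 991, against 8.83, 8.70, 8.86 and 8.75 in dKO vehicle. Every WT 991 array was below every other array, and the dKO groups overlapped with a mean effect of 0.16 (95% interval 0.05 to 0.27; adjusted p = 0.114). The fold of 991 over vehicle was 0.702 in WT and 1.12 in dKO cells, and the interaction was -0.67 ± 0.08 (SE, adjusted p = 1.48e-05). Klf4 gave -0.34 ± 0.09 (SE, adjusted p = 0.0374), a call lost in 9 of the 15 fits without 1 array.

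Pde4b, which encodes a cAMP-degrading phosphodiesterase, measured 6.86, 6.77 and 7.02 in WT 991, against 7.53, 7.86, 7.63 and 7.50 in WT vehicle, and 8.02, 8.08, 8.16 and 8.08 in dKO 991, against 8.23, 8.06, 8.15 and 8.09 in dKO vehicle. Its fold of 991 over vehicle was 0.597 in WT and 0.969 in dKO cells, an interaction of -0.70 ± 0.11 (SE, adjusted p = 0.000349); 2 further probe sets of comparable level gave -0.63 ± 0.09 and -0.49 ± 0.09. It was the only called member among 25 cAMP phosphodiesterase and cAMP-responsive genes (list median -0.06). Pde2a, another phosphodiesterase gene, measured 8.86, 8.94 and 8.98 in WT 991, against 9.33, 9.32, 9.31 and 9.23 in WT vehicle, and 10.16, 10.14, 9.85 and 9.93 in dKO 991, against 10.01, 9.98, 9.95 and 10 in dKO vehicle, an interaction of -0.41 ± 0.08 (SE, adjusted p = 0.00345), while the mean of its 3 probe sets gave -0.22 (adjusted p = 0.166).

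The 10 largest negative interactions that held in all 15 fits without 1 array, at levels above the median, also included Nrxn3 (-0.52 ± 0.12 (SE, adjusted p = 0.0117)), which encodes a synaptic adhesion protein, Cytip (-0.44 ± 0.10 (SE, adjusted p = 0.0142)), Fam13b (-0.37 ± 0.05 (SE, adjusted p = 6.64e-05)), Cdc42ep2 (-0.33 ± 0.07 (SE, adjusted p = 0.00905)), which encodes an effector of the GTPase CDC42, Hexim1, H1f2 and Dido1. Fam13b measured 10.60, 10.51 and 10.54 in WT 991, against 10.89, 10.99, 10.96 and 10.91 in WT vehicle, and 10.75, 10.77, 10.78 and 10.76 in dKO 991, against 10.85, 10.71, 10.80 and 10.75 in dKO vehicle, with WT 991 below the other groups. Nrxn3 and Cytip missed the threshold with array width as a covariate (-0.25, adjusted p = 0.137, and -0.35, adjusted p = 0.103) and as the mean of their probe sets (-0.19, adjusted p = 0.26, and -0.05, adjusted p = 0.834). Dido1 is uncertain: its brightest probe set gave -0.41 ± 0.08 (SE, adjusted p = 0.00282) and another gave 0.43 ± 0.10 (SE, adjusted p = 0.0163 in a limma fit over probe sets), and the mean of its 5 probe sets was 0.02 (adjusted p = 0.901), so the gene has no settled direction.

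Chemokine and cytokine genes went both ways, with 6 of 29 positive and 1 negative (24.1% called, against 4.56% of all genes). With array width as a covariate 2 were positive and 1 negative, and among genes at or above the median level 7 were positive and 0 negative. Cxcl5, which encodes a neutrophil chemokine, measured 7.32, 6.83 and 6.46 in WT 991, against 7.87, 7.86, 7.56 and 7.70 in WT vehicle, and 3.21, 3.42, 3.49 and 2.94 in dKO 991, against 3.24, 3.16, 3.20 and 3.22 in dKO vehicle. The dKO arrays were at the dim end of the scale, 2.94 to 3.49, and the interaction of -0.93 ± 0.20 (SE, adjusted p = 0.00717) came with effects of -0.88 in WT and 0.06 in dKO cells. Ccl5 and Ccl7 gave 0.53 ± 0.10 (SE, adjusted p = 0.00283) and 0.50 ± 0.08 (SE, adjusted p = 0.00115). For Ccl7 the larger component was a fall in dKO cells (-0.35; adjusted p = 0.0017), with 0.15 in WT cells.

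**Figure D4:**
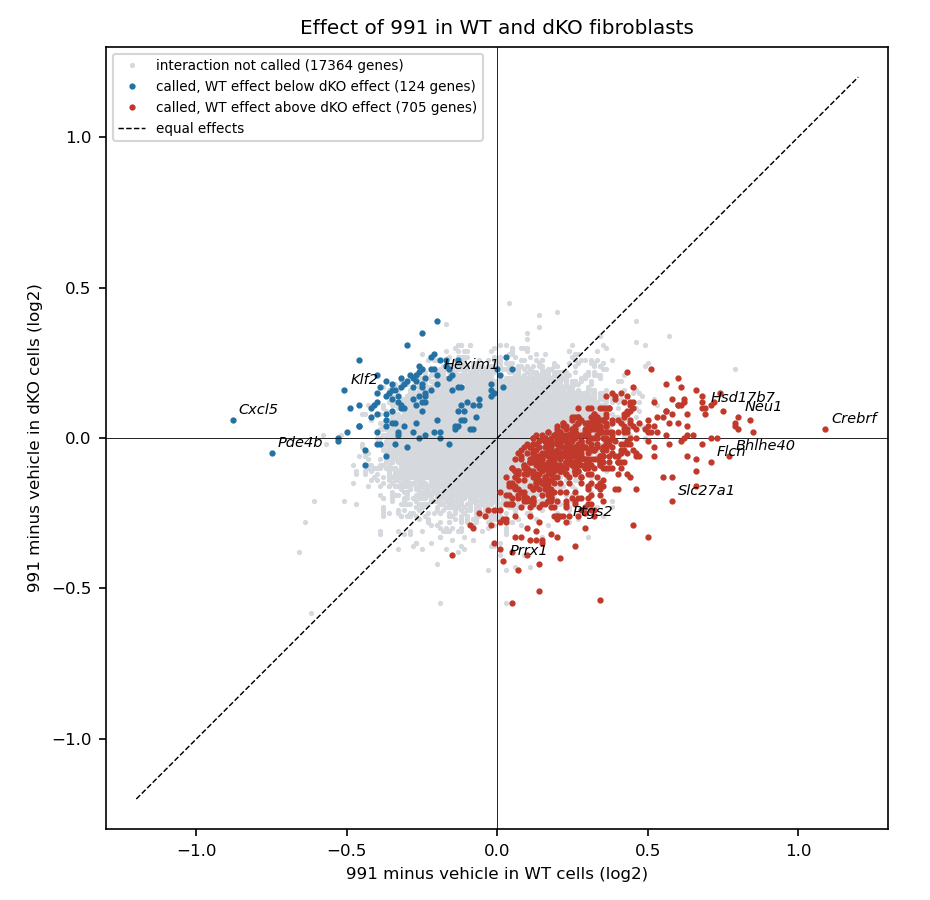
Effect of 991 (log2, 991 minus vehicle) in WT cells (x axis) against that in dKO cells (y axis) for 18193 genes; red, 705 genes with a called positive interaction; blue, 124 with a called negative one; grey, not called; dashed line, equal effects. Red points lie below the dashed line and blue points above it; Crebrf stands at 1.09 in WT and 0.03 in dKO cells, and Prrx1 at 0.02 in WT and -0.41 in dKO cells.

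The interaction can come from either genotype, and the calls were split accordingly. Of the 829 genes, 660 (79.6%) were also called in WT cells in the direction of the interaction, 574 higher and 86 lower, which is 19.8% of the genes called in WT cells. Among the 574 the median effect was 0.28 in WT and -0.03 in dKO cells, and among the 86 it was -0.32 in WT and 0.09 in dKO cells. Of the 660, 550 that were higher and 84 that were lower in WT were not called in dKO cells, 20 were called there in the opposite direction (18 higher and 2 lower in WT), and 6 rose in both genotypes. A further 73 genes with a positive interaction and 16 with a negative one were called in dKO cells and not in WT, and 57 and 22 were called in neither. The last gene, Sorbs2, was lower on 991 in both genotypes. Both components share their arrays with the interaction, so these counts are a description.

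Genes called in both genotypes in opposite directions included Hps4, which encodes a part of a complex that makes lysosome-related organelles. It measured 8.41, 8.47 and 8.37 in WT 991, against 8.08, 8.16, 8.13 and 8.13 in WT vehicle, and 8.43, 8.41, 8.52 and 8.48 in dKO 991, against 8.66, 8.71, 8.79 and 8.67 in dKO vehicle. The WT 991 arrays were above WT vehicle and the dKO 991 arrays below dKO vehicle, with no overlap, and the interaction was 0.54 ± 0.07 (SE, adjusted p = 3.81e-05). Hexim1, which encodes an inhibitor of the elongation factor P-TEFb, did the reverse; it measured 8.77, 8.74 and 8.85 in WT 991, against 8.90, 9.01, 9.02 and 9 in WT vehicle, and 9.51, 9.50, 9.55 and 9.52 in dKO 991, against 9.28, 9.31, 9.38 and 9.29 in dKO vehicle, an interaction of -0.40 ± 0.06 (SE, adjusted p = 0.000274). Ptgs2, the cyclooxygenase-2 gene, had effects of 0.23 in WT and -0.28 in dKO cells, Tead4, a factor partnering YAP, had 0.27 and -0.26, Nol4 had 0.29 and -0.30, and H1f2, a linker histone gene, had -0.15 and 0.21.

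Of 27 immediate early and MAP kinase phosphatase genes, 7 had a called positive and 1 a called negative interaction. That is 29.6%, against 4.56% of all genes, with a list median of 0.17. Myc measured 10.52, 10.54 and 10.47 in WT 991, against 10.37, 10.46, 10.41 and 10.38 in WT vehicle, and 10.27, 10.34, 10.30 and 10.41 in dKO 991, against 10.57, 10.55, 10.48 and 10.54 in dKO vehicle. The 991 and vehicle arrays did not overlap in either genotype. The WT effect of 0.10 missed the threshold (adjusted p = 0.055), the dKO effect of -0.20 passed it (adjusted p = 0.00202), and the interaction was 0.31 ± 0.05 (SE, adjusted p = 0.000899). Jun was called in both genotypes, with 0.15 in WT and -0.19 in dKO cells. For Fosl1 the WT effect was -0.03 and the dKO effect -0.24 (adjusted p = 0.0007), and Egr1 had 0 in WT and 0.23 in dKO cells (adjusted p = 0.00389). The interaction calls of Fosl1 and Egr1 were lost in 3 and 6 of the 15 fits without 1 array. The list's count of 8 ranged between 5 and 11 in those fits and under the other settings. It held 0 negative members with array width as a covariate, with the mean of probe sets or without the intensity trend. With quantile normalization 5 members were positive and 3 negative, and among genes at or above the median level 8 were positive and 3 negative. Dusp16, which encodes a MAP kinase phosphatase, had its effect in WT cells instead (0.35, against -0.04 in dKO cells), and Dusp6, of the same family, gave 0.31 ± 0.07 (SE, adjusted p = 0.00915).

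Prrx1, a homeobox factor and a fibroblast marker, was the fibroblast marker with a positive interaction. It measured 11.46, 11.50 and 11.52 in WT 991, against 11.47, 11.46, 11.48 and 11.47 in WT vehicle, and 7.94, 8, 7.90 and 8.01 in dKO 991, against 8.41, 8.45, 8.38 and 8.26 in dKO vehicle. The 7 WT arrays did not separate by treatment, while every dKO 991 array was below every dKO vehicle array, at a level far below WT. The interaction was 0.43 ± 0.06 (SE, adjusted p = 0.00011), with a dKO effect of -0.41 (adjusted p = 4.06e-06); as the mean of its 6 probe sets it was 0.22 (adjusted p = 0.0608). In these bulk RNA samples fewer cells of a type and less RNA per cell cannot be told apart. The 4 largest positive interactions called in dKO and not in WT cells were those of Gpr149 (-0.54 in dKO cells), Vegfc (-0.51), Tcim (-0.55) and Creb5 (-0.40), all of which fell in dKO cells. Of the 15 fits without 1 array, their interaction missed the threshold in 1 for Gpr149 (without WT 991 replicate 2), 9 for Vegfc, 7 for Tcim and 2 for Creb5 (without WT 991 replicate 2 or 3). The 4 largest negative ones were those of Mfsd6 (0.35), Tph1 (0.39), Svs2 (0.26) and Ep300 (0.17), which rose in dKO cells. Svs2 and Tph1 were dim, below 4.7 in every array, and Gpr149 was dim in WT cells, at 3.43 to 3.79 in WT 991 and 3.09 to 3.35 in WT vehicle.

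The remaining lists of stress and growth genes are given beside the 4.56% called over all genes, a share not matched for level. Their median levels ran from 8.81 (p53 targets) to 11.56 (cell cycle). Among the 9097 genes at or above the median level of 7.08, 633 were called positive and 60 negative. Cell cycle and DNA replication had 0 of 29, and ribosome biogenesis had 1 of 26, Nop58, with an interaction of -0.14 (adjusted p = 0.0284, lost in 5 of the 15 fits without 1 array). Of 19 p53 targets 2 were called, Gadd45a with 0.59 (adjusted p = 0.00148) and Pmaip1 with 0.50 (adjusted p = 0.0426, lost in 11 of the 15 fits without 1 array). Of 18 NRF2 targets 2 were called, with Hmox1, the heme oxygenase gene, at 0.39 (adjusted p = 0.000936) and the transketolase gene Tkt at 0.19 (adjusted p = 0.0352, lost in 9 of the 15 fits without 1 array). Of 21 YAP and SRF targets 4 were positive, the others besides Tead4 being Ccn1 with 0.27 (adjusted p = 0.0067), the tissue factor gene F3 with 0.55 (adjusted p = 0.00905) and the matricellular gene Ccn2 with 0.29 (adjusted p = 0.00125). Other Ccn1 probe sets, with mean levels of 11.22, 10.81 and 10.8, gave 0.24 ± 0.07, 0.01 ± 0.05 and 0.06 ± 0.06. The mean of all Ccn1 probe sets gave 0.14 (adjusted p = 0.0917). Of 22 ER chaperone genes 2 were called, the stress sensor gene Atf6 with 0.37 (adjusted p = 0.00395) and the co-chaperone gene Dnajb9 with 0.44 (adjusted p = 0.00579), and of 17 hypoxia genes 1, Ndrg1 with 0.44 (adjusted p = 0.0032).

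The starting levels of the 2 genotypes differed widely. Under vehicle 8507 of 18193 genes (46.8%) differed between dKO and WT cells, 5045 higher and 3462 lower in dKO. Among the 829 genes with a called interaction 654 (78.9%) differed under vehicle, and 86 of them by at least 2-fold (10.4%, against 5.29% of all genes). The remaining 175 began at levels that did not differ detectably, among them Ddit3, Hmgcs1, Dbp and Klf2. The vehicle arrays enter both the interaction and this difference, so the 2 shares are a description.

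AICAR, a precursor of an AMP-like AMPK activator, was given to the same MEFs at 2 mM, and primary hepatocytes received 991 at 3 µM; doses and cells differ, so the values stand side by side only. The AICAR interaction shares its vehicle arrays with the 991 interaction. For Flcn the interaction was 0.79 with 991 and 0.32 ± 0.09 (SE, adjusted p = 0.0202) with AICAR in MEFs, and 0.90 ± 0.13 (SE, adjusted p = 0.0117) with 991 in hepatocytes. For Crebrf the 3 values were 1.06, 0.83 and 0.67, for Txnip 0.73, 1.37 and -0.07, and for Neu1 0.73, 0.11 and 0.65. In hepatocytes the Crebrf interaction was not called (SE 0.15, adjusted p = 0.134 in limma), while that of Neu1 was (SE 0.09, adjusted p = 0.00966). Fnip1 showed an AICAR effect of 1.01 in WT and 1.04 in dKO MEFs, an AICAR interaction of -0.03, against 0.83 with 991. For Hmgcs1 the AICAR effects were 0.43 and 0.40, an interaction of 0.03, against 0.50 with 991. The negative interactions of Klf2 (-0.67 with 991) and Pde4b (-0.70) stood beside 0.10 and 0.27 with AICAR and -0.06 and -0.07 in hepatocytes, while that of Cxcl5 stood beside -2.53 ± 0.18 with AICAR.

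In hepatocytes the 991 interaction was called for 73 genes (0.401%), with 2 preparations per genotype as replicates. Called in both cell types in the same direction were 24 genes, which is 2.9% of the MEF calls and 32.9% of the hepatocyte calls. They include Flcn, Fnip2, Neu1, Ctns, Atp6v1b2, Ostm1, Hps4, Insig1, Stx3 and Ugcg. Stx3, which encodes a syntaxin of membrane fusion, had interactions of 0.56 in MEFs and 0.93 in hepatocytes. Irs1 and Tmcc3 were called in opposite directions, with 0.25 and 0.34 in MEFs and -0.75 and -0.46 in hepatocytes. In the sterol list Hsd17b7, Lss and Hmgcs1 had 0.08, 0.08 and 0.18 in hepatocytes, and none of these 3 was called there (adjusted p = 0.916, 0.921 and 0.608).

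Of the 90 named genes called, 27 missed the threshold with array width as a covariate. Besides those with values above, they were Ctns (0.31; adjusted p = 0.34), Nbr1 (0.15; 0.223), Calcoco1 (0.25; 0.228), Cpt2 (0.16; 0.232), Crebl2 (0.41; 0.145), Dnajb9 (0.34; 0.0594), Csnk1e (0.23; 0.117), Pdp1 (0.26; 0.159), Tkt (0.1; 0.376), Pmaip1 (0.29; 0.341), F3 (0.28; 0.105), Ccn1 (0.18; 0.105), Nop58 (-0.15; 0.0714), Col1a1 (-0.2; 0.093), Csf1r (-0.27; 0.256), Ptgs2 (0.33; 0.0514), Gpr149 (0.61; 0.139), Vegfc (0.32; 0.373), Tcim (0.4; 0.225), Creb5 (0.37; 0.186), Tph1 (-0.49; 0.151) and Svs2 (-0.45; 0.0504). As the mean of all probe sets, Sqstm1 (0.25; adjusted p = 0.055), Tead4 (0.27; 0.065), Nol4 (0.18; 0.151), Dusp16 (0.25; 0.0817) and Mfsd6 (-0.16; 0.293) missed it too. Without the intensity trend 16 of the named genes missed it. They were Ccn1, Col1a1, Cpt2, Csf1r, Csnk1e, Ctns, Ep300, Fnip1, Gabarapl1, Nbr1, Nop58, Nrxn3, Pmaip1, Tcim, Tkt and Vegfc.

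Fibroblast identity was checked with 17 markers. Of these, 12 were at or above the median level in each group, and the summed level (log2) lay between 16.27 and 16.32 in WT 991, 16.30 and 16.33 in WT vehicle, 15.75 and 15.77 in dKO 991, and 15.76 and 15.79 in dKO vehicle. Prrx1 had a positive and Col1a1, a collagen gene, a negative interaction (-0.23; adjusted p = 0.013). Markers of other cells were mostly dim, with 9 of 11 epithelial, 9 of 10 leukocyte, 8 of 9 endothelial and 7 of 8 muscle and neural markers below the median level in every group, and 8 of 8 hepatocyte markers (7 in dKO vehicle). Csf1r, a macrophage receptor gene, had a negative interaction (-0.37; adjusted p = 0.0464) that was lost in 10 of the 15 fits without 1 array, and the part of other cells in the results was not tested.

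How firmly a call stands depended on single arrays. Of the 829 genes, 331 were called in all 15 fits that left out 1 array, 303 of them positive and 28 negative. The number called ranged from 413 without WT 991 replicate 2 and 415 without WT 991 replicate 3 to 1692 without WT vehicle replicate 2. Leaving out WT 991 replicate 4 gave 1289 and dKO 991 replicate 3 gave 1330. The other arrays whose absence moved the number by over 1.5 times were WT vehicle replicate 1 (530), dKO 991 replicate 1 (492), and dKO vehicle replicates 1 (468), 2 (460) and 3 (508). The genes described above at greatest length (Crebrf, Bhlhe40, Flcn, Fnip2, Ddit3, Txnip, Neu1, Hmgcs1, Hsd17b7, Ifit2, Klf2 and Pde4b) were called in all 15. Those chosen by size were taken only from genes called in all 15, so for them this outcome was fixed by the choice.

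**Figure D5:**
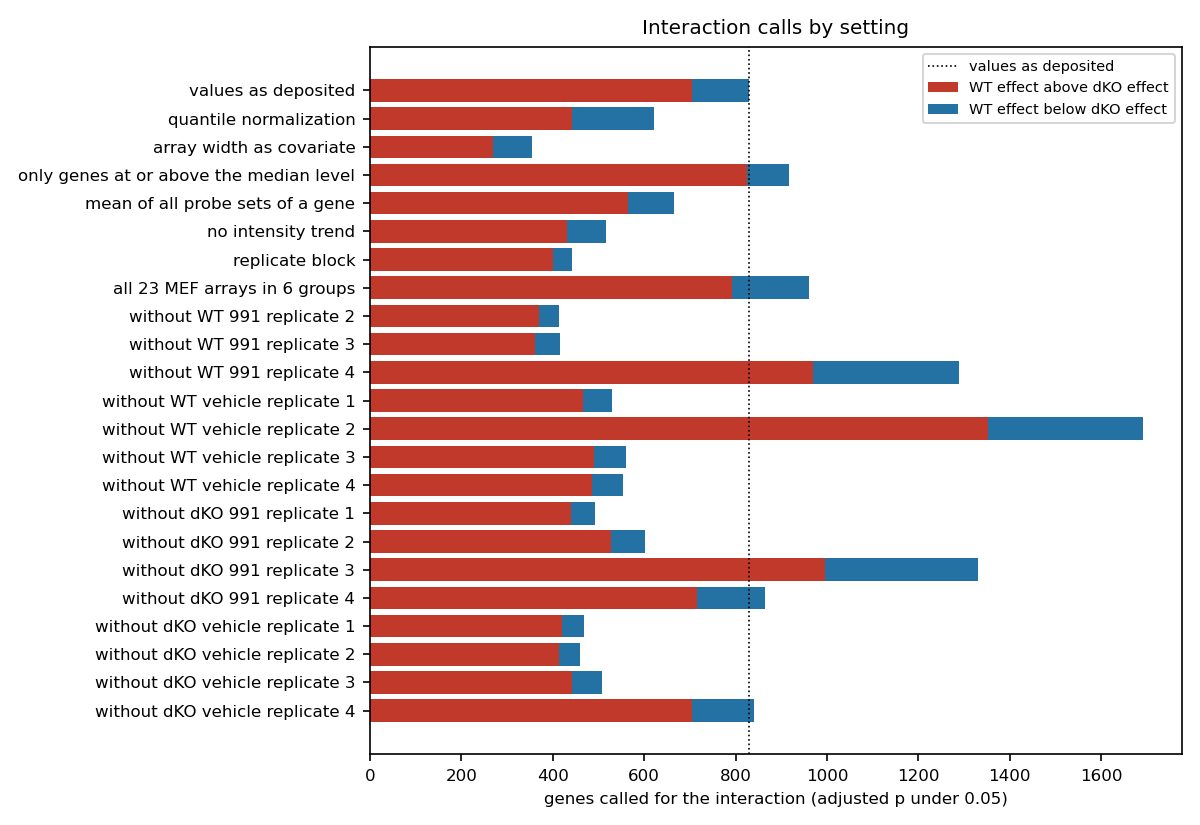
Number of genes called for the interaction (x axis, adjusted p under 0.05) with the values as deposited (829, dotted line), under 7 other settings and in the 15 fits that leave out 1 array; red, WT effect above the dKO effect; blue, WT effect below it. Positive calls outnumber negative ones in every bar, and the bars run from 354 to 1692.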

How the data were processed

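RNA of MEFs was measured on Affymetrix mouse arrays. The submitters' processing notes name RMA and Partek, without versions or roles; the values the authors deposited are log2 intensities per probe set. The arrays hold 45101 probe sets, of which 64 are controls and were dropped; 34945 have 1 gene symbol in the platform annotation (932 have several, 9160 none). The probe set with the highest mean over the 15 arrays stood for each of 18193 genes. limma 3.58.1 (R 4.3.3; lmFit, contrasts and eBayes with an intensity trend) was fitted to the 4 groups with 11 residual degrees of freedom. P-values were adjusted by Benjamini-Hochberg over all genes and called under 0.05. The fitting code was tested on simulated data. Hepatocyte values are means per preparation, 2 per genotype. Figures used matplotlib 3.10.9.

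Named were Prkaa1, Prkaa2 and Flcn; the 12 largest positive and 10 largest negative interactions called in all 15 fits without 1 array at a mean above the median; up to 4 called members of each of 24 gene lists and 6 marker lists; and the 4 largest each way among genes called in opposite directions and among those called in dKO cells only. Other list members are given from the same lists. The members and lists were chosen with earlier results of these data known. Alternatives were quantile normalization, array width as a covariate, a level filter, the mean of probe sets, no intensity trend, a replicate block, a fit over 23 MEF arrays, and leaving out each array. Arrays carry no counts, so their number limits precision.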

Additional observations from a re-analysis of the deposited data

Results flagged for a closer look

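Among 276 groups of 4 arrays of the named genes, 18 had an array far from the other 3; chance flags about 1 in 20 groups. In WT vehicle these were Bhlhe40 in replicate 4 (7.86, the others 8.02 to 8.03), Cdc42ep2 in replicate 2 (9.68, the others 9.49 to 9.51), Dido1 in replicate 1 (9.92), Gabarapl1 in replicate 4 (10.79), Nol4 in replicate 3 (5.81) and Nop58 in replicate 2 (12.34). In dKO 991 they were Abca1 in replicate 1 (7.06, the others 7.18 to 7.19), Col1a1 in replicate 3 (11.63) and Foxo3 in replicate 2 (8.74). In dKO vehicle they were Cdc42ep2 in replicate 2 (9.18), Cpt2 in replicate 3 (9.40), Crebl2 in replicate 4 (4.87), Ddit3 in replicate 2 (8.66), Hsd17b7 in replicate 2 (10.03), Neu1 in replicate 3 (8.22), Nol4 in replicate 4 (6.68), Sqstm1 in replicate 1 (11.95) and Tph1 in replicate 1 (3.79).

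The effect of 991 differed between WT and dKO cells, with opposite directions called in both, for Nol4 (interaction 0.58), Hps4 (0.54), Tead4 (0.53), Ptgs2 (0.52), Hexim1 (-0.40) and H1f2 (-0.36), all by limma's interaction term.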

How the results depend on the processing

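The interaction was called for 829 genes, the WT effect for 3331 and the dKO effect for 463. With array width as a covariate these were 354, 851 and 1191; without the intensity trend 517 genes were called for the interaction and 166 for the dKO effect. Quantile normalization gave 2064 for the WT effect, and a fit to genes at or above the median level gave 698 for the dKO effect. Leaving out 1 array gave 413 to 1692 for the interaction, 1590 to 4724 for WT and 191 to 652 for dKO. With a replicate block the counts were 443, 2057 and 294, and 440 of the 443 were among the 829. Deviations of same-numbered arrays correlated at r between -0.38 and 0.23 (21 pairs, median -0.03, 3 of them over 0.1). For differently numbered arrays r lay between -0.43 and 0.39 (63 pairs, median 0.02, 19 of them over 0.1). With so few arrays per group, these correlations cannot decide whether same-numbered arrays were handled together. Of the 90 named genes called, the width covariate kept 63, the mean of probe sets 66, the fit without trend 74, the block 77, quantile normalization 84 and the 23-array fit 88. Dido1 changed sign as the mean of its probe sets (0.02). The causes were not tested. Replicates are technical, and dim genes (below 7.08) are limited by signal over background.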

Other observations

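Outside the gene lists, opposite directions were also called for Slc25a33, which encodes a mitochondrial pyrimidine nucleotide carrier, with effects of 0.27 in WT and -0.20 in dKO cells (interaction 0.47), for Arid5b (0.23 and -0.18) and for Rbpj, the DNA-binding factor of Notch signalling (0.11 and -0.26). These 3 were chosen after their values were seen. Pnpla8, Armcx3 and Ankrd12 rose in both genotypes, by 0.51, 0.39 and 0.43 in WT and by 0.23, 0.14 and 0.22 in dKO cells.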
